A study of Mus musculus with 12 samples.

Results

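Late erythroid cells were chosen by their measured globin share, as the barcodes in which 4 adult globin genes (Hba-a1, Hba-a2, Hbb-bs and Hbb-bt) supplied at least 80% of all unique molecular identifiers (UMIs, each standing for 1 captured transcript) and in which no UMI of Kit, the receptor for stem cell factor on early progenitors, was seen. Across 9 libraries, 184493 barcodes passed a minimum of 1000 UMIs and a limit of 15% on mitochondrial UMIs, and 23130 of them (12.5%) met this definition. It used the globin share itself, so the level of the 4 globins in these cells and any gene that separates them from other cells are descriptions and were not tested. A further 213 barcodes passed the globin threshold but held a Kit UMI and were left out. Levels of all other genes are given as CPM, meaning UMIs of a gene per 1000000 of a library's non-globin UMIs, summed over its late erythroid barcodes. Such a level is a share of the remaining RNA and not an amount per cell.

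Livers had been taken from embryos (E16.5) and from pups 3 days after birth (P3) that were Jag1+/+, Jag1Ndr/+ or Jag1Ndr/Ndr (written Jag1Ndr/Nd in the strain label), where Ndr is the Nodder allele of the Notch ligand gene Jag1, and single cells were profiled on the 10x Genomics droplet platform. All animals, controls included, came from crosses between 2 heterozygotes and carried no transgene or drug named in the labels, P3 homozygotes were recognised by jaundice, the E16.5 digestion alone included TrypLE, and a magnetic column took out dead cells, per the labels' protocols. At E16.5, 5 libraries were used, namely Jag1+/+ replicate 1, Jag1Ndr/+ replicate 1, Jag1Ndr/Ndr replicates 1 and 2, and a shared library deposited identically as Jag1+/+ replicate 2 and Jag1Ndr/+ replicate 2, which was counted once. At P3, 4 libraries were used: A and B, deposited as Jag1+/+ replicates 1 and 2, C, which is Jag1Ndr/Ndr replicate 1 less every barcode also found in A, and D, deposited as Jag1Ndr/+ replicate 1. Barcodes of A and B also appeared under other genotype labels, so their genotype was treated as unclear. The series' design text gives 2 animals per genotype and stage. The groups differ in age, digestion, software version and gene list at the same time, and these cannot be told apart in any comparison of stages.

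In the fetal and newborn mouse, the liver is a site of red cell formation. Maturing erythroblasts divide, then stop dividing, fill with haemoglobin and expel the nucleus to become reticulocytes, which then clear their mitochondria, ribosomes and many other proteins. Because transcription falls while globin messages are stable, globin RNA comes to dominate what is left, and enzymes such as Alas2, which catalyses the first step of haem synthesis in erythroid cells, and Bpgm, which makes the 2,3-bisphosphoglycerate that lowers the oxygen affinity of haemoglobin, are classical late products.

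The number of late erythroid barcodes differed widely between libraries. At E16.5, 876 and 2807 were found in Jag1+/+ replicate 1 and Jag1Ndr/+ replicate 1, 6699 and 629 in the homozygous replicates 1 and 2, and only 3 in the shared library. At P3, libraries A to D held 5063, 1956, 2582 and 2515. As a percentage of passing barcodes, Jag1Ndr/Ndr replicate 1 stood highest at 36.5% (95% exact binomial interval 35.8 to 37.2%, covering counting error only) and its replicate 2 at 2.38% (2.20 to 2.57%). The 2 homozygous libraries thus lay on either side of Jag1+/+ replicate 1 (4.63%) and Jag1Ndr/+ replicate 1 (9.67%). At P3 the percentages were 23.5, 11.1, 17.2 and 14.8% in A to D. With the shared library at 0.0145%, the mean was 10.6 ± 14.9% at E16.5 (SD, n = 5) and 16.7 ± 5.22% at P3 (SD, n = 4). The difference was smaller than the SD at E16.5. The rule itself sets these shares, so they are descriptions with no test. Without Jag1Ndr/Ndr replicate 1 the difference rose from 6.02 to 12.5 percentage points, and at a 70% globin threshold it turned to -4.53 points. For homozygous against other libraries at E16.5 the means were 19.4 ± 24.1% (SD, n = 2) and 4.77 ± 4.83% (SD, n = 3). Without the homozygous replicate 1 the sign of the difference changed, to -2.39 points.

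The threshold met different parts of the globin distribution at the 2 stages. At E16.5 the bin from 80 to 85% globin held 60.7% of the late barcodes in Jag1Ndr/Ndr replicate 1 and 89.8 to 96.9% in the other 3 libraries with more than 50 such barcodes. The highest globin share of any passing barcode was 83.8% in the shared library and 87.1 to 92% in those 4. At P3 the corresponding maximum was 93.2 to 96.3%, and only 24.5 to 43.1% of late barcodes lay between 80 and 85%. Around the threshold levels changed smoothly: in Jag1Ndr/Ndr replicate 1, Alas2 was 4571 CPM in 846 barcodes at 78 to 80% globin and 4989 CPM in 1261 at 80 to 82%. In library C the same values were 14925 CPM (329 barcodes) and 16569.5 CPM (306 barcodes).

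**Figure D1:**
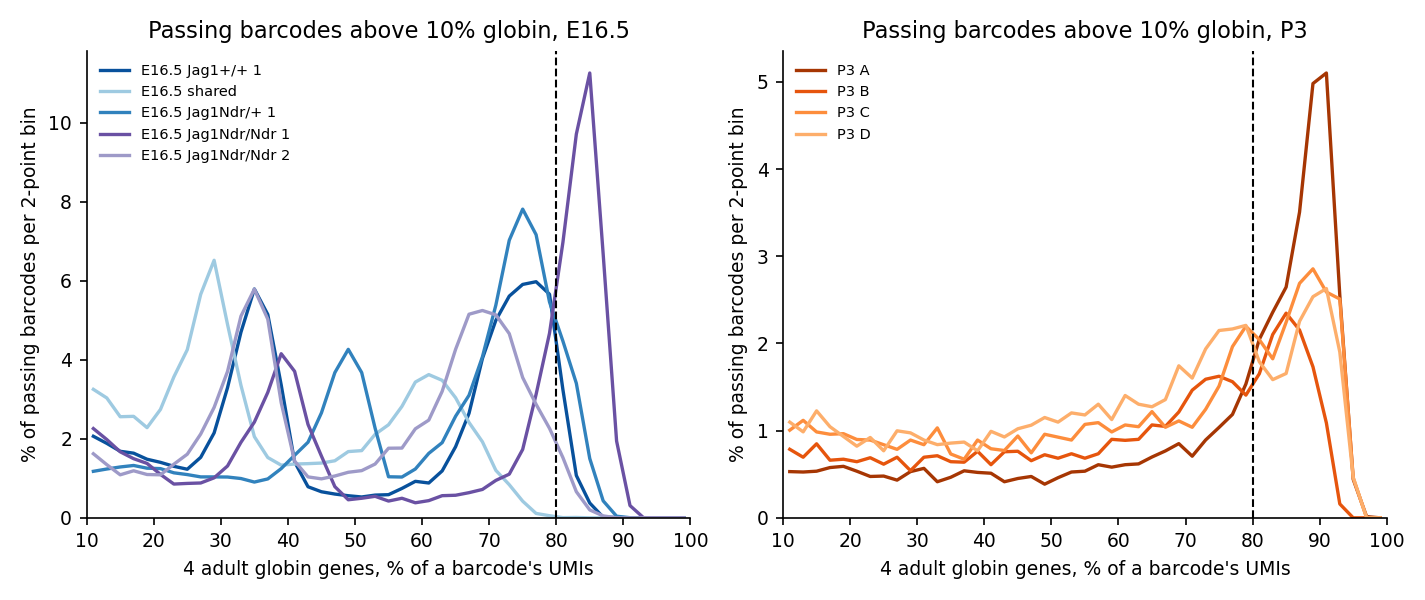
Share of passing barcodes (vertical axis, % of all passing barcodes per bin of 2 percentage points) against the share of their UMIs on the 4 adult globin genes (horizontal axis, %, drawn from 10% up), 1 line per library, E16.5 left and P3 right with separate vertical scales. The dashed line is the 80% threshold: among the E16.5 lines only Jag1Ndr/Ndr replicate 1 has its top to the right of it and the shared library ends near it, while all P3 lines extend beyond 90%.

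Depth and the RNA around the cells also differed by stage. Leaving aside the shared library, a late barcode held a median of 10615 to 11768 UMIs at E16.5, of which 1648 to 2146 were not globin, and 2236 to 5205 UMIs at P3, of which 259 to 554 were not globin. After each barcode was thinned to 1000 UMIs, and again without the shared library, 121 to 148 genes were detected in the median late barcode at E16.5 and 66 to 87 at P3. Erythroblasts, defined as barcodes under 80% globin with a UMI each of Tfrc, Klf1 and Slc4a1, had 309 to 397 and 383 to 465. In the shared library erythroblasts had 455. B-lineage barcodes, which should lack globin, carried a median of 13.2 to 23.6% globin at E16.5 and 0.382 to 0.737% at P3, a level that free globin RNA in the suspension can give. The non-globin UMIs summed over late barcodes were 1371984 to 11520310 in the 4 larger E16.5 libraries and 745580 to 3239251 in the P3 ones, but only 6326 in the shared library, so that a single UMI there makes a large level. The shared library stayed in the fits, and levels below are given for the 4 other E16.5 libraries. Pairs of libraries had 0.547 to 1.72% of barcodes in common, leaving aside A and C, from which the shared barcodes had been removed, and 0 to 10 late barcodes, and doublets were not called.

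The other markers of the label were seen in more late barcodes than B-lineage barcodes, and the shares in erythroblasts lay closer. Alas2 was seen in 48.7 to 59.4% of late barcodes at E16.5 and 77.8 to 95% at P3 after thinning to 1000 UMIs, against 19.1 to 28.3% and 5.93 to 14.1% of B-lineage barcodes and 41.6 to 46.6% and 53.7 to 60.3% of erythroblasts. The unthinned shares of late barcodes with Alas2 were 99.9 to 100% and 94.9 to 99.9%. Bpgm was seen in 55.3 to 59.8% and 47.2 to 72% of thinned late barcodes, and in 17.3 to 21.3% and 4.15 to 6.60% of B-lineage ones and 30.6 to 38.7% and 14.1 to 24.2% of erythroblasts. At E16.5, however, transcripts of cell division overlapped in level between the gated barcodes and erythroblasts. The 25 listed genes of the G2 and M phases summed to 9111 to 10425 CPM in late barcodes and 9259 to 10328 CPM in erythroblasts. At P3 the sums were 3197 to 4332 and 10678 to 13380.3 CPM. The barcodes above the threshold thus carried more cell-cycle RNA at E16.5 than at P3.

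Besides others given with the results below, promoters of 5 genes named in the haem, interferon and metallothionein results were searched. These 5 are shown with short motifs in capitals. All run 5′ to 3′ on the gene's strand from 250 bases before to 50 bases after the RefSeq start (GRCm38.p6). Alas2 (chrX:150547167-150547466, plus strand) carries 1 match to AGATAA, the core bound by GATA factors, which 11.2% of 32851 promoters of this length hold on either strand. Isg15 (chr4:156200769-156201068, minus strand) and Rsad2 (chr12:26456403-26456702, minus strand) carry 3 overlapping matches and 1 match to the letters GAAA, 2 bases of any kind and GAAA, the core of the interferon-stimulated response element, held by 3.44% of promoters. Mt1 (chr8:94178839-94179138, plus strand) and Mt2 (chr8:94172368-94172667, plus strand), neighbours on chromosome 8, carry 3 and 4 matches to the metal response core, searched as TGCGCNC (15.4% of promoters) and TGCACNC (12.6%). Both strands were searched, and a match is a description of letters, not a bound site.
Alas2: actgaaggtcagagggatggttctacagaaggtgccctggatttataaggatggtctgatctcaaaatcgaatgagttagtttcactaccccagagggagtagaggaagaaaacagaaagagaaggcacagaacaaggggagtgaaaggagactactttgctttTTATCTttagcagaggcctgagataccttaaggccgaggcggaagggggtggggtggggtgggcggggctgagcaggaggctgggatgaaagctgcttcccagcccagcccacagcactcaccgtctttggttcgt
Isg15: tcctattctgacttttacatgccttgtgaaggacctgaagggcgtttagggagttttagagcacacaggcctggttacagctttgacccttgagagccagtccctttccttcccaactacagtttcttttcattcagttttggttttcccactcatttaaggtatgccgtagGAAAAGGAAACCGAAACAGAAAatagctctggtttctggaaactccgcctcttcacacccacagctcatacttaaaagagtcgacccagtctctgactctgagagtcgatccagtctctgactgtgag
Rsad2: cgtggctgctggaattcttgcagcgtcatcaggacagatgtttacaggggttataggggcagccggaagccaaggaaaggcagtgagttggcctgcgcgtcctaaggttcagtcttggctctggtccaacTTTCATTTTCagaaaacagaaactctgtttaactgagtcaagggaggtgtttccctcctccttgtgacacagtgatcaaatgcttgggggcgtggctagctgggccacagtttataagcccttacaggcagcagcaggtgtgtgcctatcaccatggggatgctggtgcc
Mt1: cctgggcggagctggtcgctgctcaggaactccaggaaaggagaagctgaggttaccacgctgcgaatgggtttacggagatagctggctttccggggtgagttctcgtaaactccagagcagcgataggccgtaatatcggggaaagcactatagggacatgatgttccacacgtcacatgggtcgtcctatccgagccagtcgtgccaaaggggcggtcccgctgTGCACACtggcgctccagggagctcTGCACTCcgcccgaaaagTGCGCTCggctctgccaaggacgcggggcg
Mt2: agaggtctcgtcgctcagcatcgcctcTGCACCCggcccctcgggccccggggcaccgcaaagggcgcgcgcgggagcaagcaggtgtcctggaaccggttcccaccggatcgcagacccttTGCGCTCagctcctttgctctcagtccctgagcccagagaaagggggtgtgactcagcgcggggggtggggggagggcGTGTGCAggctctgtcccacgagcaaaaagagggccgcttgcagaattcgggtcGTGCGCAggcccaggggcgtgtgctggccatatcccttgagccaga

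Outside the gate globins, the 12 highest genes of late erythroid cells by mean level over the 9 libraries of both stages were Gpx1, Fth1, Ftl1, Ubb, Prdx2, Alas2, Mkrn1 and 5 mitochondrial genes (mt-Co1, mt-Co2, mt-Co3, mt-Atp6 and mt-Cytb). This order pools the stages, and at E16.5 alone Car2, Mt1 and Bpgm, whose values are given below, lay above mt-Cytb. Fth1, the ferritin heavy chain that stores iron, was 21496, 20253, 21378 and 17220.3 CPM in Jag1+/+ replicate 1, Jag1Ndr/+ replicate 1 and Jag1Ndr/Ndr replicates 1 and 2, and 8480.0, 13025, 10964 and 15416 CPM in libraries A to D. All 4 E16.5 values lay above all P3 values in plain CPM. The fit with TMM factors gave a log2 change of -0.15 (edgeR, adjusted p = 0.758), and without scaling factors it was -0.70 (adjusted p = 0.0113). Prdx2, a peroxiredoxin that removes hydrogen peroxide in red cells, was 9996 to 15063 CPM at E16.5 and 6237 to 13559 CPM at P3, with overlapping groups. Ubb, which encodes polyubiquitin, was 9360.2 to 13129.6 and 6599 to 21512 CPM, with library B highest. Cytoplasmic ribosomal protein genes took 14.5 to 22.4% of non-globin UMIs at E16.5 and 8.13 to 11.6% at P3, whereas in erythroblasts they took 19.9 to 22.2 and 25.3 to 26.4%.

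Among the gate globins, the alpha genes Hba-a1 and Hba-a2 together supplied 29 ± 3.04% of globin UMIs at E16.5 (SD, n = 5) and 31.1 ± 3.51% at P3 (SD, n = 4), and the beta genes Hbb-bs and Hbb-bt the rest. These 4 genes chose the barcodes, so their shares are descriptions with no test. Hbb-bt, the minor adult beta gene, made up 23.7, 22.4, 18.9, 18.6 and 23.7% of beta UMIs at E16.5, in the order Jag1+/+ replicate 1, shared, Jag1Ndr/+ replicate 1 and Jag1Ndr/Ndr replicates 1 and 2. In libraries A to D it made up 13, 9.56, 13.5 and 20.2%. Libraries A, B and C lay below every E16.5 library, and D lay among them. The means were 21.5 ± 2.55% (SD, n = 5) and 14.1 ± 4.46% (SD, n = 4), and leaving out single libraries gave differences of -9.43 to -5.87 percentage points.

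Hba-a2 split the libraries into 3 levels that did not follow stage or genotype. It made up 2.44% of alpha UMIs in library D and 3.63% in E16.5 Jag1+/+ replicate 1. It made up 19.6, 21 and 22.1% in library B, the shared library and Jag1Ndr/Ndr replicate 1. In the other 4 libraries it made up 40.4 to 44.6%. The mean share of Hba-a1 was 73 ± 17.2% at E16.5 (SD, n = 5) and 73.6 ± 19.1% at P3 (SD, n = 4). The split is uncertain, because in GENCODE M21 the coding sequences of the 2 genes (chromosome 11, GRCm38) differ at 1 of 429 bases and the first 74 bases after the stop codon at 0, and how reads shared between them were assigned is not given in the sources used here. The embryonic globins were traces of non-globin RNA. Hbb-y fell (61.8 to 141 CPM at E16.5 and 11.7 to 22.8 CPM at P3, log2 fold change -1.86, SE 0.297, adjusted p = 4.19e-05, edgeR), while in B-lineage barcodes it was 13.4 and 3.54 CPM on average. Hba-x ranged from 10.8 to 68.2 CPM at E16.5 and 5.36 to 177 CPM at P3, and Hbb-bh1 from 4.95 to 37.2 and 1.02 to 60.9 CPM. Both overlapped between stages and did not pass the test. Hbb-bh2 stayed at or under 1.65 CPM in all 9 libraries.

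**Figure D2:**
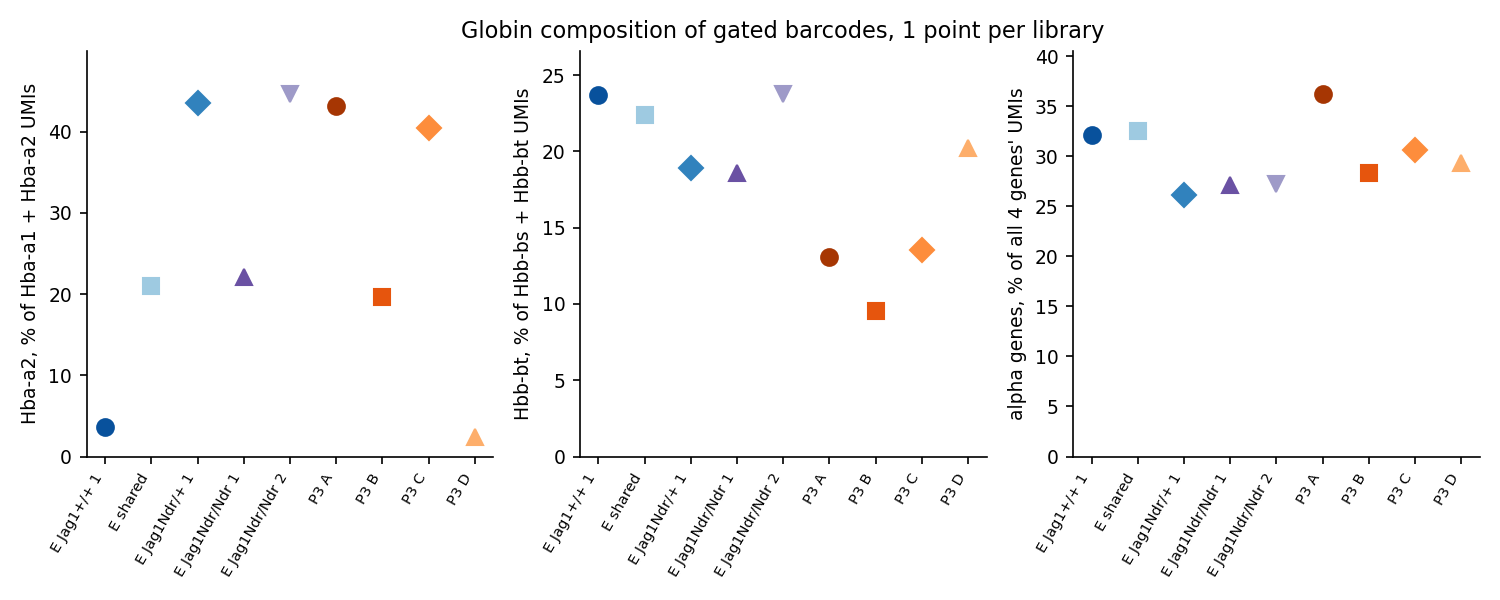
Composition of globin UMIs in late erythroid barcodes, 1 point per library, vertical axes in % starting at 0: Hba-a2 within the alpha genes (left), Hbb-bt within the beta genes (middle) and the alpha genes within all 4 (right). Hba-a2 forms 3 levels that mix stages, Hbb-bt is lowest in P3 libraries A to C, and the alpha share overlaps between stages.

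Late erythroid cells at P3 were then compared with those at E16.5, each library summed to 1 sample (4 against 5), with edgeR's quasi-likelihood test and Benjamini-Hochberg adjustment. Of 6358 genes tested, 1714 were higher and 1523 lower at P3 at an adjusted p under 0.05, so that 50.9% of these changed (27% higher and 24% lower), and counts within gene lists have to be read against this. All 13 tested interferon-stimulated genes, 15 of 20 genes of a ubiquitin and remodelling list and the first and last enzymes of haem synthesis rose. Most cell-cycle genes and the metallothioneins fell. The median log2 change of all genes was 0.03. It moved to 0.27 with RLE factors (2243 higher, 1041 lower), to 0.27 in DESeq2 (1588 and 634) and to -0.43 without scaling factors (1068 and 2614), so modest changes depend on the scaling. Restricting both stages to 80 to 85% globin gave 1519 higher and 1365 lower genes, 2476 of them called in both, and leaving out the shared library gave 1780 and 1701. At a 90% threshold, where 57 and 1 barcodes in a pair of libraries stood for E16.5, edgeR called 183 of 1241 genes, 30 of 78 named genes kept direction and side of the threshold, 23 (Bpgm and Isg15 among them) lost the call, Tmcc2, Ppp1r15a and Eif2ak1 turned sign, and the rest were not tested. Without the low-count filter Gpx1, mt-Co1, Mkrn1, Tmcc2, Ftl1, Cyb5r3 and Bnip3l were not called.

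**Figure D3:**
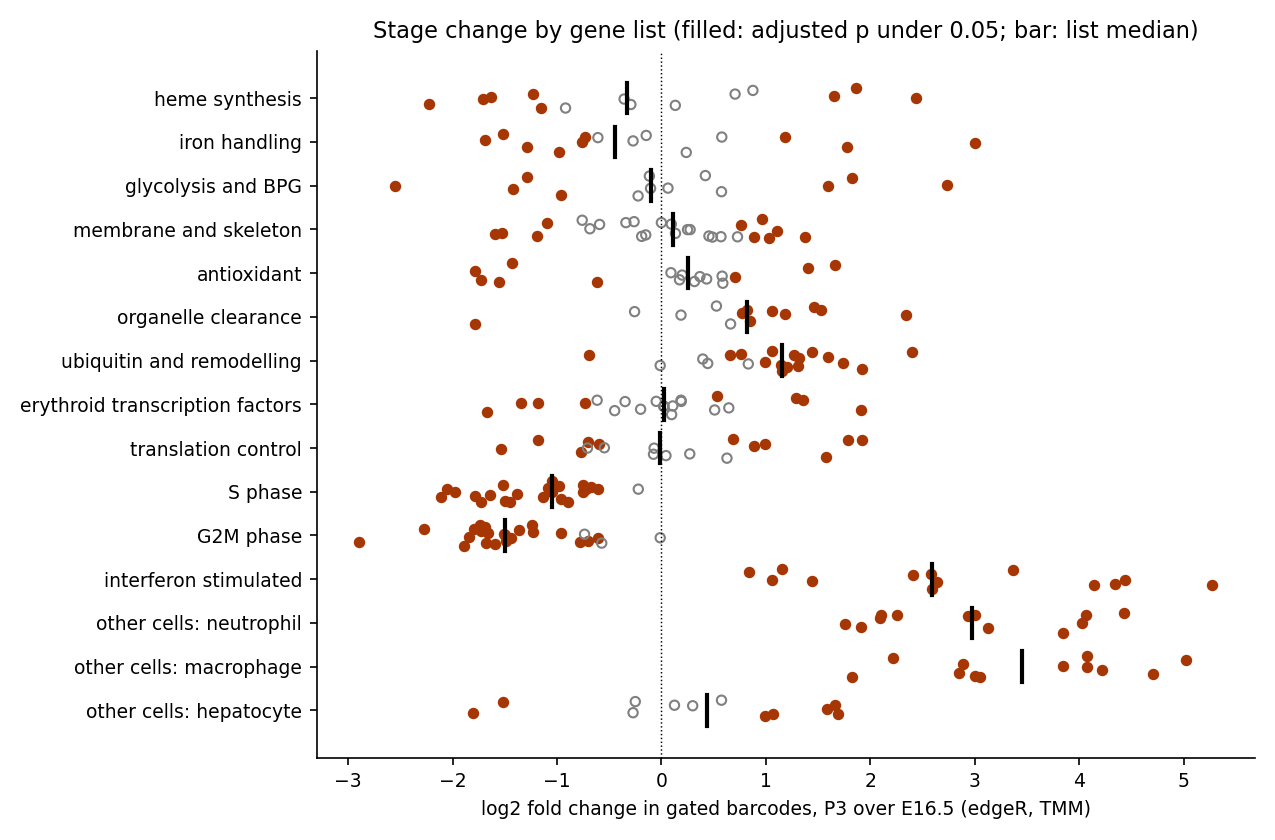
Log2 fold change between P3 and E16.5 in late erythroid barcodes (horizontal axis) for the tested members of 15 gene lists (rows). Each point is a gene, filled where the adjusted p was under 0.05, vertical position within a row is jitter, and the bar is the list median: the cell-cycle lists lie left of 0, and the interferon, neutrophil and macrophage lists right of it.

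Haem synthesis did not move as a block. Of 14 listed genes, all tested, 3 were higher and 5 lower, where 27% of all genes were higher and 24% lower. The list's median log2 change was -0.33 against 0.03 for all genes. Within 80 to 85% globin at both stages it was 0.11 against -0.01, with 5 higher and 4 lower. Alas2 (chrX:150547375-150570638 in GENCODE M21, GRCm38) was 5144, 3957, 5924 and 4328 CPM in the 4 E16.5 libraries, in the order given above, and 14473, 17586, 24749 and 15938 CPM in libraries A to D. Every P3 library lay above every E16.5 library, with means of 4838 ± 877 CPM at E16.5 (SD, n = 4) and 18186 ± 4556 CPM at P3 (SD, n = 4). The edgeR test gave a log2 fold change 2.43, SE 0.325, adjusted p = 5.83e-06. Its promoter with the GATA core is printed above. No match to that core was found in the promoters of Bpgm, Slc25a39, Ube2l6, Mkrn1 and Gpx1, which also rose. Fech, ferrochelatase, which inserts iron into the porphyrin ring in the last step, rose (1797 to 2715 CPM at E16.5 and 3559 to 7295 CPM at P3, log2 fold change 1.65, SE 0.351, adjusted p = 0.000699). Slc25a39, a mitochondrial carrier of glutathione, rose (971 to 1510.4 CPM at E16.5 and 2199 to 4213 CPM at P3, log2 1.86). In between the 2 end enzymes, Cpox, coproporphyrinogen oxidase, fell (1190.0 to 1638 CPM at E16.5 and 187 to 365 CPM at P3, log2 fold change -1.64, SE 0.305, adjusted p = 0.000212) and so did Uros, uroporphyrinogen III synthase (126 to 154 CPM at E16.5 and 26.4 to 59.2 CPM at P3). Tmem14c, which carries protoporphyrinogen into mitochondria, was 812, 1031, 793 and 881 CPM at E16.5 and 82.1, 155, 178 and 133 CPM at P3, lower in every library (log2 fold change -2.22, SE 0.279, adjusted p = 2.9e-06). Slc25a38, the mitochondrial glycine carrier, fell by 1.71 on the log2 scale. Alad (619.5 to 2453 and 352 to 859.7 CPM) and Urod (1073 to 1362 and 852 to 1874 CPM) did not pass the test.

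Iron genes and antioxidants also changed in both directions, as did all genes tested (27% higher and 24% lower). In the iron list of 14 genes 3 rose and 6 fell. Hmox1, haem oxygenase, rose (20.6 to 35 CPM at E16.5 and 80.5 to 233 CPM at P3, log2 3.00), and so did Slc40a1, the iron exporter ferroportin (29.9 to 44.4 CPM at E16.5 and 61.7 to 123 CPM at P3, log2 1.78). Both are also abundant in macrophages, whose markers rose alongside (below), and the part of macrophage RNA in these 2 changes was not tested. Steap3, the ferrireductase of erythroid endosomes, fell (23.7 to 40.1 CPM at E16.5 and 4.07 to 12.1 CPM at P3). Tfrc, the transferrin receptor, was 779 to 895 and 229.8 to 565 CPM and did not pass the test. Ftl1, the ferritin light chain, was 8752 to 12364 and 8619 to 25375 CPM (log2 1.18, adjusted p = 0.0156), and its call was lost without scaling factors and when any of libraries B, C and D was left out. Of 16 antioxidant genes 3 rose and 5 fell. Gpx1, glutathione peroxidase, was 16230.4, 16879, 14554 and 17636 CPM at E16.5 and 31933, 28569, 44056 and 30761 CPM at P3, with every P3 library above every E16.5 one (log2 fold change 1.66, SE 0.334, adjusted p = 0.000428). Txn1, thioredoxin, fell (471 to 724 CPM at E16.5 and 97.6 to 140.3 CPM at P3), as did Gss, glutathione synthetase (56.9 to 81.8 CPM at E16.5 and 12.1 to 16.4 CPM at P3), and Sod1, superoxide dismutase, fell by 1.56 on the log2 scale.

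The metallothioneins Mt1 and Mt2, small proteins that bind zinc and copper, fell in every P3 library. Mt1 was 5907, 5683, 4162 and 9526 CPM at E16.5 and 335, 329, 201 and 209 CPM at P3 (log2 fold change -3.97, SE 0.382, adjusted p = 1.34e-07). Mt2 was 2435, 2337, 1665 and 3821 CPM and 75, 89.5, 37.6 and 44.3 CPM (log2 fold change -4.75, SE 0.421, adjusted p = 5.38e-08). No library of 1 stage reached the range of the other, and the promoters of both, shown above, hold metal response cores. Such cores were not confined to genes that fell. The promoter of Slc25a39, which rose, holds 1 match to the first form searched and 2 to the second, as does that of Mt1. Ube2l6 and Mkrn1, which also rose, each have a promoter with 1 match to the first form. Levels of Mt1 were lower at P3 in other cells too. Erythroblasts had 3486 CPM of Mt1 on average at E16.5 and 521 CPM at P3, and B-lineage barcodes 1278 and 195 CPM. The log2 change in late cells less that in erythroblasts was -1.57 (SE 0.279, adjusted p = 3.4e-05, edgeR interaction test).

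In glycolysis, Bpgm was 4900.1, 4812, 6421 and 5293 CPM at E16.5 and 8297, 13526, 13933 and 14516 CPM at P3 (log2 fold change 1.83, SE 0.345, adjusted p = 0.000237), with library A the lowest of the P3 libraries and still above every E16.5 one. Of the 13 list members tested 3 rose and 4 fell, where 27% of all genes rose and 24% fell. Pklr, the red cell form of pyruvate kinase, fell (28.6 to 92.6 CPM at E16.5 and 5.25 to 10.8 CPM at P3, log2 fold change -2.55, SE 0.346, adjusted p = 7.02e-06), whereas Pkm, the form of most other tissues, rose (17.6 to 33.5 CPM at E16.5 and 73.8 to 146 CPM at P3, log2 fold change 2.73, SE 0.265, adjusted p = 1.48e-07). B-lineage barcodes had 245 and 445 CPM of Pkm on average, and the part of other cells' RNA was not tested. Of 26 genes of the membrane and its skeleton 6 rose, 4 fell and 16 did not pass, against the same shares of all genes. The list's median was 0.11, and -0.35 without scaling factors. Within 80 to 85% globin at both stages 12 rose and 3 fell, with a median of 0.75, where 1519 of 5882 genes rose and 1365 fell. Slc4a1, the band 3 anion exchanger, at 2287 to 4098 and 1586 to 5431 CPM, did not pass. Tmcc2 rose (1662 to 2044 CPM at E16.5 and 891 to 4039.8 CPM at P3, log2 1.38), although library B, at 891 CPM, lay below all E16.5 libraries. The blood group proteins Icam4 and Xk fell by 1.59 and 1.53, and Kel by 1.19 on the log2 scale. Icam4 no longer passed at a 70% globin threshold. Car2, the main carbonic anhydrase, was 7516 to 8479 and 2192 to 6347 CPM without passing, and Hagh, a glyoxalase, rose (171 to 440.4 CPM at E16.5 and 417 to 999 CPM at P3).

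Genes of protein and organelle clearance mostly rose. Of 20 ubiquitin and remodelling genes 15 were higher and 1 lower at P3, where 27% of all genes were higher and 24% lower. The list's median log2 change was 1.15, and 9 were higher and 2 lower without scaling factors. The list also holds remodelling genes such as Xpo7, Riok3, Pim1 and Isg20, and Isg20 is counted in the interferon list as well. Ube2l6, a conjugating enzyme for ubiquitin and ISG15, was 1545, 1139, 1566 and 1246 CPM at E16.5 and 5464, 5292, 5444 and 3553 CPM at P3 (log2 fold change 2.40, SE 0.322, adjusted p = 6.33e-06), with no overlap. Ube2o, which marks ribosomal proteins for destruction in reticulocytes, rose (444 to 981 CPM at E16.5 and 1219 to 2300.2 CPM at P3, log2 1.74), and Mkrn1, a ubiquitin ligase, also rose (6787 to 10064 CPM at E16.5 and 9452 to 15380.5 CPM at P3, log2 1.20), where stages overlapped and the call was lost without libraries A and B. Trim58, which acts on dynein during enucleation, rose (12.4 to 19.8 CPM at E16.5 and 24.7 to 79.1 CPM at P3). Psme4, a proteasome activator, was the member that fell (104 to 168 CPM at E16.5 and 43.7 to 93.9 CPM at P3). Of 13 genes of mitophagy and autophagy that were tested, 8 rose and 1 fell, against the same shares of all genes. Without scaling factors 4 rose and 2 fell. Bnip3l, the mitophagy receptor of reticulocytes, was highest, at 2336 to 3269.6 and 2742 to 5000.3 CPM (log2 1.06, adjusted p = 0.0107), and was not called without scaling factors or when library B, C or D was left out. Sqstm1, an autophagy adaptor, rose (63.5 to 81.9 CPM at E16.5 and 180.0 to 356 CPM at P3, log2 2.34), and Becn1 (115 to 155 CPM at E16.5 and 224 to 406 CPM at P3). Bnip3, the related receptor, fell (39.6 to 48.8 CPM at E16.5 and 4.17 to 12.3 CPM at P3).

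Mitochondrially encoded transcripts were also higher at P3. The rule limited them to 15% of a barcode's UMIs, so their levels are a description, although the fits included them. That limit removed 4214, 1805, 121 and 419 barcodes in libraries A to D and 788 to 2546 per library at E16.5. mt-Cytb was 2228, 2807, 3099.7 and 1877 CPM at E16.5 and 58441, 25715, 18208 and 13469 CPM at P3. As a share of all UMIs, mitochondrial genes had a median of 0.569 to 0.668% in late barcodes at E16.5 and of 4.07, 3.45, 1.33 and 1.54% in libraries A to D. As a share of non-globin UMIs they took 3.79 to 5.48% at E16.5 and 34.7, 25.9, 14 and 15.5% in A to D, with A and B highest. B-lineage barcodes did not show this step: their mean mt-Cytb level was 5059 CPM at E16.5 and 5970.5 CPM at P3. Along the globin share, the summed mt- genes at P3 averaged 50797 CPM in barcodes at 20 to 40% globin and 238435 CPM at 90 to 95%. At E16.5 they averaged 76151 CPM at 20 to 40% and 44229 CPM at 85 to 90%. Without the mt- genes in genes and totals, 1817 genes were higher and 1573 lower, and 3183 calls were shared, and without libraries A and B the counts were 1592 and 1320.

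Transcription and translation factors changed in both directions, as did all genes tested (27% higher and 24% lower). Of 21 erythroid transcription factor genes 4 rose and 4 fell. Klf1, the master regulator of adult globin, fell (259 to 327 CPM at E16.5 and 75.2 to 196 CPM at P3, log2 -0.73), and so did Ldb1, a cofactor that links enhancers to the globin genes (32.9 to 36.5 CPM at E16.5 and 5.08 to 9.39 CPM at P3). E2f2 rose (322 to 533 CPM at E16.5 and 448 to 1278 CPM at P3) and Sox6 by 1.29 on the log2 scale. Nfix, at 4.44 to 7.29 and 10.2 to 22.4 CPM, rose by 1.91. Gata1 was 76.5 to 116 and 26.4 to 79.3 CPM and did not pass. Of 18 genes of translation control 6 rose and 5 fell. Eif5 was 2734, 1923, 2699 and 2237 CPM and 4764, 4214, 6881 and 8899 CPM (log2 fold change 1.92, SE 0.334, adjusted p = 0.000106), without overlap. Eif2ak1, the haem-regulated kinase that slows globin synthesis when haem is short, rose (203 to 232 CPM at E16.5 and 265 to 696 CPM at P3, log2 1.57), and so did Ppp1r15a, which reverses that block (351 to 407 CPM at E16.5 and 370.1 to 1224 CPM at P3, log2 1.78), with library B close to the E16.5 range. Pabpc1, the main poly(A) binding protein, at 4073 to 6810 and 2011 to 6614 CPM, did not pass. Of 80 ribosomal protein genes tested 2 rose and 27 fell, and 12 to 60 fell with RLE factors and without scaling. In the fetal list, 8 genes were tested and 2 rose (Arid3a and Igf2bp3, both under 25 CPM) and 2 fell (Hbb-y and Dlk1). Of the 16 Notch pathway genes only Rbpj was abundant enough to test, at 10.1 to 13.9 and 5.36 to 13.2 CPM, and it did not pass.

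Cell-cycle transcripts fell as a group. Of 25 S-phase genes 24 were lower and 0 higher at P3 (median log2 change -1.05), and of 25 G2/M genes 22 were lower and 0 higher (median -1.50). Among all genes tested 24% were lower. With RLE factors 18 and 19 were lower, in DESeq2 13 and 18, and within 80 to 85% globin 24 and 20. Mcm2, a helicase subunit of replication, was 176, 145, 193 and 168 CPM at E16.5 and 17, 27.5, 43.4 and 33.5 CPM at P3. Cks2, a partner of cyclin-dependent kinases, was 725, 1041, 658 and 819 CPM and 71.6, 71.2, 92.6 and 69.7 CPM (log2 fold change -2.89, SE 0.281, adjusted p = 1.5e-07). Both were separated completely by stage. Rrm2, Fen1, Dut, Cdk1 and Birc5 fell by 1.64 to 2.27 on the log2 scale. Ube2c, the ubiquitin enzyme of the anaphase-promoting complex and the highest of the G2/M list, did not pass, at 2242 to 3153 and 1426 to 1858 CPM. In erythroblasts the sums were higher at P3: S-phase genes summed to 3572 to 4462 CPM at E16.5 and 5214 to 7176 CPM at P3, against 3029 to 3343 and 615 to 1229 CPM in late cells. In the test of that difference (edgeR, interaction of cell set and stage), 25 of 25 S-phase and 24 of 25 G2/M genes had the lower change in late cells, where 24.7% of all 12483 genes did.

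The tested interferon-stimulated genes all rose. All 13 of the 17 measured list members that were abundant enough to test were higher at P3, where 27% of all genes tested were. Their median log2 change was 2.59, and 10 were higher without scaling factors. A low gene can pass the filter through 1 stage alone, so these counts are descriptions. Isg15, a ubiquitin-like protein attached to targets through Ube2l6, was 184, 284, 369 and 143 CPM at E16.5 and 1682, 2770.0, 6609 and 3420.2 CPM at P3 (log2 fold change 4.34, SE 0.461, adjusted p = 3.97e-07). Irf7, a transcription factor of the response, was 7.21, 11.9, 19.1 and 5.10 CPM and 96.9, 348, 781 and 201 CPM (log2 fold change 5.27, SE 0.538, adjusted p = 2.55e-07). Rsad2, viperin, was 1524, 237, 2355 and 184 CPM and 2489, 3519, 5732 and 4111 CPM (log2 fold change 2.41, SE 0.615, adjusted p = 0.00314), so that the E16.5 libraries themselves spread widely and the highest of them, Jag1Ndr/Ndr replicate 1, came close to library A. Ifitm3, a membrane protein that limits virus entry, rose (11.8 to 25.5 CPM at E16.5 and 174 to 554 CPM at P3, log2 4.43). Library C was highest in each of Isg15, Irf7, Rsad2 and Ifitm3. Of the 13 tested members, 11 had a promoter in the RefSeq table and 7 held that same response element core within it, against 3.44% of all promoters. The promoter of Irf7 held 0 matches to that core.

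Isg15 was not spread evenly over cell types at P3. After thinning it was seen in 9.14 to 31.4% of late barcodes, 11.5 to 30.3% of erythroblasts and 1.82 to 7.91% of B-lineage barcodes, and at E16.5 in 1.75 to 4.25%, 1.77 to 5.75% and 0.430 to 2.60%. As a level, Isg15 averaged 3620.2 CPM in late cells, 361 CPM in erythroblasts and 65.7 CPM in B-lineage barcodes at P3. These levels rest on unlike denominators, since they are shares of non-globin UMIs. The median globin share at P3 was 85.5 to 88.6% in late barcodes, 28 to 40.9% in erythroblasts and 0.382 to 0.737% in B-lineage barcodes. The thinned shares above count all UMIs, and at P3 they overlapped between late barcodes and erythroblasts. The stage change of Isg15 was larger in late cells than in erythroblasts by 1.08 on the log2 scale (SE 0.268, adjusted p = 0.00133, edgeR interaction test), and that of Irf7 and Ifitm3 by 2.33 and 3.50. This test also used non-globin totals, which did not change alike in the 2 sets. At E16.5 the median globin share was 81.3 to 84.3% in late barcodes and 30 to 55.1% in erythroblasts. The part of the denominators in these differences was not tested.

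Markers of other cells moved in the same direction. In late barcodes all 12 neutrophil and all 12 macrophage markers were higher at P3. The neutrophil list summed to 2165 to 6995 CPM at E16.5 and 8316 to 17125 CPM at P3, and the macrophage list to 135 to 183 and 944 to 1989 CPM. In B-lineage barcodes the neutrophil sums were 11791 to 32176 and 26802 to 58563 CPM, and the macrophage sums 233 to 692 and 1289 to 2034 CPM. Of the other lists, B-lineage markers gave 7 higher and 1 lower of 9 tested, endothelial 5 higher of 5, mesenchymal 2 of 3, megakaryocyte 6 of 6, and T and NK cell markers 3 of 3. Each of these lists has 10 members, and the rest were too low to test. A low gene can pass the filter through 1 stage alone, so these counts are descriptions. The T and NK list, for example, summed to 9.78 to 22.6 CPM at E16.5 and 75.3 to 154 CPM at P3. Hepatocyte markers gave 5 higher and 2 lower of 12, with Alb, albumin, at 1423 to 3038 CPM at E16.5 and 317 to 613 CPM at P3. None of the markers of other cells was at 0 in all 8 libraries with more than 50 late barcodes. The part of RNA from other cells in the interferon and other rises was not tested.

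**Figure D4:**
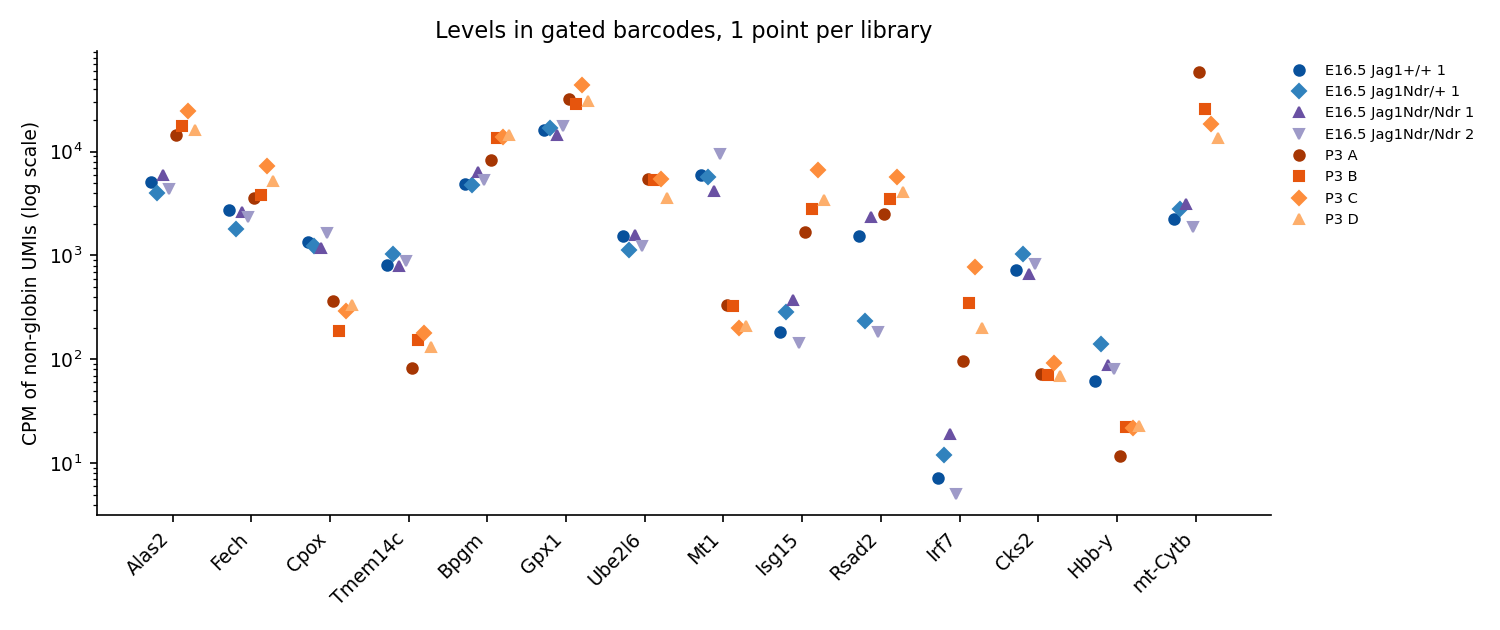
Level of 14 genes in late erythroid barcodes (vertical axis, CPM of non-globin UMIs, log scale), 1 point per library, with E16.5 in blue and violet and P3 in orange and brown; the shared library is not drawn. Alas2, Gpx1, Ube2l6, Isg15 and Irf7 are higher in every P3 library, Cpox, Tmem14c, Mt1, Cks2 and Hbb-y are lower in every one, and Rsad2 differs widely among E16.5 libraries.

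The genes with the greatest fitted changes, among those at 50 CPM or more in 1 stage and without overlap, were partly not erythroid. The rises were led by Atp6v0c (log2 8.78), Igfbp2 (6.24), Iglc1 (5.90), Cd74 (5.82), Gda (5.39), Irf7 (5.27), C1qa (5.02), Igkc (4.88), Gzma (4.87) and Oas3 (4.86). Iglc1 and Igkc encode immunoglobulin light chains, Cd74 the invariant chain of antigen presentation, C1qa a complement protein of macrophages and Gzma a granzyme of killer cells. Atp6v0c, a proton pump subunit, was 0.515 to 1.46 CPM at E16.5 and 322 to 395 CPM at P3, and B-lineage barcodes gave nearly the same step, 1.78 and 395 CPM, as did erythroblasts, 1.81 and 407 CPM. The gene lists of the 2 stages hold 31053 and 22597 genes, and a part of the annotation in single-gene steps of this kind was not tested. The falls were led by Serpina6, Spink1 (log2 -6.21), Mt2, Mt1, Fam220a (-3.92), Snrpf (-3.35), Kif18b (-3.33), Rfesd (-3.24), Zfp367 (-2.92) and Hist1h2bm (-2.92). Serpina6 had 641 UMIs at E16.5 and 0 at P3, which is at least 63.6-fold lower against a floor of 3 counts over the P3 libraries together, and its place in this order rests on a fitted value that is no bound. Fam220a was 2063, 1420.3, 3033 and 1641 CPM at E16.5 and 122, 42.7, 110.2 and 88.5 CPM at P3, and erythroblasts averaged 304 and 25 CPM (difference between cell sets -0.49, adjusted p = 0.257).

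Whether late cells changed between stages as erythroblasts did was tested as an interaction, with each library as a block. Of 12483 genes 3926 had a higher change from E16.5 to P3 in late cells and 3078 a lower one (56.1% of genes), and the split was 5693 and 1288 with RLE factors, 4650 and 1050 in DESeq2 and 3493 and 3646 without factors. Bpgm rose by 2.84 more on the log2 scale in late cells (SE 0.343, adjusted p = 1.26e-07), where erythroblasts went from 674 to 293 CPM on average. Alas2 rose by 1.87 more, Ube2l6 by 1.99, Mkrn1 by 2.14 and Eif5 by 2.18. The sets were not matched for globin share. Late barcodes had a higher median share in every P3 library, while erythroblast medians overlapped between stages (given above with Isg15). Bpgm was also followed in bins of 20 to 40, 40 to 60, 60 to 70 and 70 to 80% globin. There Bpgm averaged 487, 1126, 2308 and 3665 CPM at E16.5, against 442, 922, 2509 and 6668 CPM for P3. The part of globin share in these differences was not tested. In the ubiquitin and remodelling list 15 of 20 genes had the higher change in late cells, against 31.5% of all genes. Tmem14c and Cpox fell by 2.71 and 1.63 more. Among genes averaging at least 50 CPM, the smallest p-values belonged to Lgals3, Fcer1g, Cybb, Hp and S100a6, with differences of 3.55 to 3.79. These are genes that myeloid cells, among others, express. All 12 neutrophil, 12 macrophage and 12 hepatocyte markers had the higher change in late cells, beside the lists above.

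Within the gate, levels were followed along the globin share as a description, in bins with at least 20 barcodes. At P3, Alas2 and Ube2l6 were higher in each successive bin in every library. Alas2 was 10526, 14721, 17871 and 11641 CPM in libraries A to D at 80 to 85% globin, 14598, 20262, 25203 and 16832 CPM at 85 to 90% and 20138, 26709.9, 39668 and 24415 CPM at 90 to 95%. Ube2l6 went from 2827 to 4698 CPM in the first bin to 5010.2 to 7807 CPM in the last over the same bins, and Mkrn1 from 7667 to 12472 CPM in the first bin to 11486 to 18554 CPM in the last. Slc4a1 and Isg15 were lower at 90 to 95% than at 80 to 85% in all 4 P3 libraries. Slc4a1 was 3356, 2189, 5248 and 7019.5 CPM at 80 to 85% and 753, 245, 1065 and 1739 CPM at 90 to 95%, and Isg15 2341, 3698, 8563 and 4193 and 948, 802, 1465 and 903 CPM, in the same order. Eif5 went from 6084 to 11681 CPM in the first bin to 638 to 2435 CPM in the last and Gpx1 from 33023 to 48198 CPM in the first bin to 8723 to 22358 CPM in the last. Bpgm was highest at 85 to 90% in A, C and D (8959.8, 16389 and 17078 CPM) and at 80 to 85% in B (14475 CPM). Tfrc was 299 to 1016 CPM at 80 to 85% and 70.3 to 147 CPM at 90 to 95%.

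Over these bins the non-globin content of a P3 barcode shrank, from a median of 440.5 to 963 UMIs at 80 to 85% globin to 154 to 410 at 90 to 95%. The summed neutrophil markers rose at the same time, from 9971, 12393, 12323 and 6052 CPM to 18650.3, 22356, 27191 and 13158 CPM in A to D. Their part in the rises of other genes was not tested. At E16.5 the range of globin shares was narrow. From 80 to 85% to 85 to 90% globin, Alas2 went from 5109.6, 3827, 5425 and 4232 to 6139, 5035, 6625 and 5825 CPM and Bpgm from 4860.4, 4665, 5817 and 5214 to 6047, 5995, 7288 and 6525 CPM in the 4 libraries. Tfrc went from 786 to 976 CPM in the first bin to 628 to 776 CPM in the last. At the same 80 to 85% globin, Alas2 in every P3 library (10526 to 17871 CPM) lay above every E16.5 library (3827 to 5425 CPM), and the fitted stage change within that bin was 1.79 for Bpgm and 4.77 for Isg15, an alternative chosen after seeing the data.

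**Figure D5:**
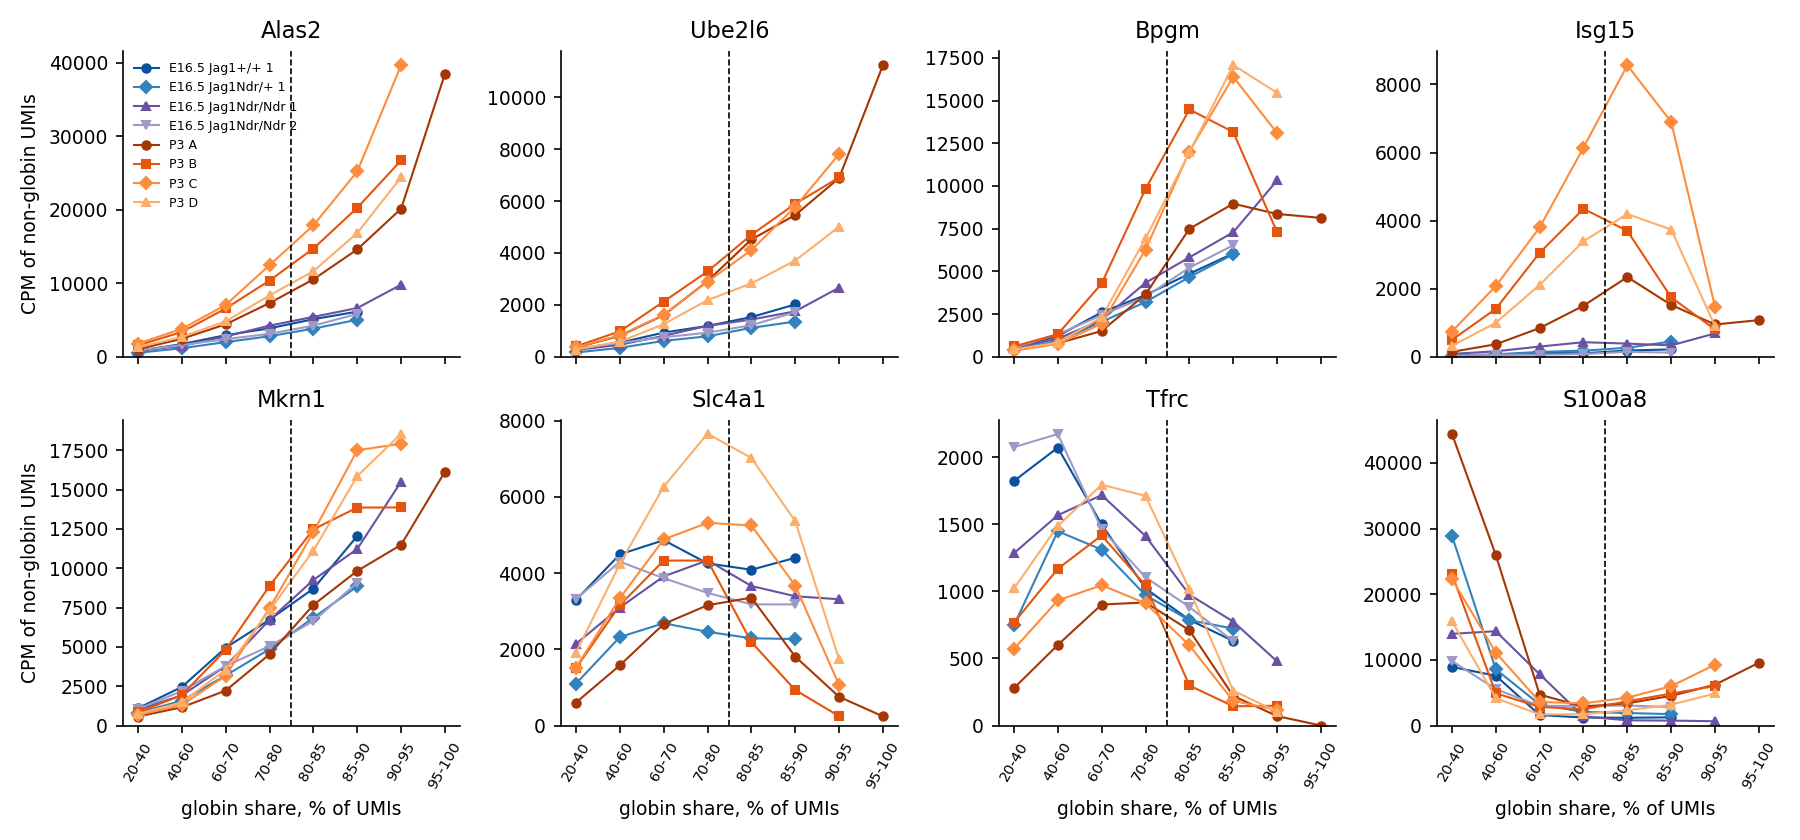
Level of 8 genes (vertical axes, CPM of non-globin UMIs) in bins of the globin share of a barcode (horizontal axis, % of UMIs), 1 line per library, blue and violet for E16.5 and orange and brown for P3; bins under 20 barcodes and the shared library are not drawn, and the dashed line marks 80%. Alas2 and Ube2l6 climb to the last bin, while at P3 Isg15 and Slc4a1 peak and then drop above 80%, Tfrc drops at both stages, and S100a8, a neutrophil gene, climbs above 80% at P3.

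The effect of the Nodder allele on late erythroid cells was examined at E16.5, with the 2 homozygous libraries against the 3 others. Of 7152 genes 18 were higher and 6 lower in homozygous libraries (0.336% of all, 0.252% higher and 0.0839% lower, by edgeR at an adjusted p under 0.05), and 322 had an unadjusted p under 0.05. The count depended on the shared library with its 3 late barcodes. Without it edgeR called 0 genes (289 at an unadjusted p under 0.05). DESeq2 on all 5 libraries had 0 of 7152 genes even at an unadjusted p under 0.05. That is fewer than evenly spread p-values would give, so its 0 calls are no check on the edgeR count. At a 70% globin threshold, edgeR called 0 (186 unadjusted). The 10 genes of smallest p were Selenbp2, Apol11b, Nacad, Mnd1, Zfp990, Agxt, Ston2, Ankrd36, Gm16867 and Hist2h2ac, all with 0 UMIs in the shared library. Selenbp2 was 3.60, 0.341, 21.9 and 6.56 CPM in Jag1+/+ replicate 1, Jag1Ndr/+ replicate 1 and the homozygous replicates, and Apol11b 14.9, 13.8, 86.2 and 8.75 CPM. Mnd1 was 17.5, 33.4, 5.99 and 9.48 CPM. Each of these lay under 100 CPM, and without Jag1Ndr/Ndr replicate 1 the log2 change of Apol11b turned from 1.95 to -0.79. Gm16867, at 106, 0.171, 263 and 0 CPM in the same order, was then called lower in place of higher (edgeR adjusted p = 1e-09), the remaining homozygous library having 0 UMIs. Leaving out other libraries gave 44 calls without Jag1+/+ replicate 1, 7 without Jag1Ndr/+ replicate 1, and 12 and 186 without the homozygous replicates 1 and 2. Alas2, listed above, overlapped between the groups and did not pass (log2 0.35, edgeR adjusted p = 1). Bpgm, at 6421 and 5293 CPM in the homozygous libraries, lay above the 4900.1, 4812 and 3952 CPM of Jag1+/+ replicate 1, Jag1Ndr/+ replicate 1 and the shared library, and did not pass either (log2 0.56, adjusted p = 1).

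At P3 only libraries C (homozygous label) and D (heterozygous label) could be set side by side, with 1 library each and no test. The 2 also differ in depth. Before the limits were applied, C held 0 barcodes under 1000 UMIs and D held 2822. All 2582 late barcodes of C had at least 2000 UMIs, against 1661 of 2515 in D. The part of depth in the differences was not tested. Intervals are exact 95% Poisson intervals of the UMI counts and cover counting error only, so they compare 2 libraries and not 2 genotypes. They were apart for 669 of 6358 genes (10.5%), 319 higher in C (5.02%) and 350 higher in D (5.5%). Isg15 was 6609 CPM in C (95% interval 6464 to 6756) against 3420.2 CPM in D (3289 to 3556), and Irf7 was 781 (732 to 833) against 201 CPM (170.3 to 236). In all, 9 of 13 interferon genes were higher in C and 0 in D. The neutrophil markers moved with them, 9 of 12 higher in C, and S100a8 was 5855 (5719 to 5993) against 3109 CPM (2984 to 3238). So were 6 of 12 hepatocyte, 4 of 12 macrophage, 3 of 9 B-lineage and 2 of 6 megakaryocyte markers, while 1 macrophage marker and none of the other 4 lists was higher in D. The part of other cells' RNA in the difference was not tested. Of 26 membrane genes 13 were higher in D and 1 in C, with Slc4a1 at 3863 (3752 to 3976) against 5431 CPM (5265 to 5601). Alas2 was 24749 (24468 to 25032) against 15938 CPM (15653 to 16227), and Fech 7295 (7143 to 7449.7) against 5174 CPM (5012 to 5340.4). Bpgm, at 13933 (13722 to 14146) against 14516 CPM (14244 to 14792), had intervals that were barely apart. Libraries A and B, whose genotype is unclear, lay below both in Alas2 in the case of A (14473 CPM) and between them in that of B (17586 CPM), and below D in Isg15.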

How the data were processed

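Single-cell libraries of mouse liver were available as raw count matrices. Per the file headers and values, the deposited matrices hold whole UMI counts per gene and barcode, with 10x software 3.1.0 at E16.5 and 3.0.2 at P3, and the submitters' processing notes name Cell Ranger 2.1.1, mm10, R 4.1.2 and Seurat. The features and barcodes files give gene names and barcodes. How reads of near-identical genes were assigned is not given in the sources used here.

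Barcodes under 1000 UMIs or over 15% mitochondrial UMIs were left out, and the globin and Kit rule was applied. Counts were summed per library over late erythroid barcodes, over erythroblasts, and over B-lineage barcodes (under 50% globin). Library sizes were non-globin UMIs. Genes present in both stages' gene lists were tested with edgeR 4.0.16 in R 4.3.3 (TMM factors, filterByExpr, glmQLFit and glmQLFTest, Benjamini-Hochberg adjustment over all genes tested), leaving out the globins of the definition and Kit. DESeq2 1.42.0 was an alternative. Shares were compared by two-sided exact permutation over libraries (scipy 1.17.1, 5 tests), and the p-values are not given, since the rule used the globin genes. Other tables and figures were made with Python 3.11.15, numpy 2.4.6, pandas 2.3.3 and matplotlib 3.10.9. Because nothing but the design text says that replicates are separate animals, p-values measure the spread between these samples. Doublets were not called, and dropping the top 10% of UMIs was an alternative.

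The steps were tested on simulated counts with changed genes. For stage (6251 genes) 71.1% of genes with a log2 change of 1 and 100% with a change of 2 were recovered, for genotype (7108 genes) 22.3 and 97.7%, and for the interaction (12430 genes) 15.2 and 71.6%. False calls were 4.40, 5.13 and 3.61% of calls. The simulation gave every gene the same spread between libraries and drew the changed genes from those with higher counts. Most genes were left unchanged, whereas 50.9% of genes were called between stages here. These rates hold for the simulated counts and are not error rates of the results above.

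The cells and the gene lists were chosen with earlier results of these data known. Named genes were the 12 of highest level and the 10 of largest change each way between stages without overlap and with at least 50 CPM. To these came the 10 of smallest p for genotype and, with a mean of at least 50 CPM, the 5 of smallest p for the interaction. The embryonic globins and up to 4 members of each list were also named. Of 6 nuclear RNAs listed, 1 was in both gene lists and none was tested. Promoters came from a RefSeq table (GRCm38.p6) and coordinates from GENCODE M21 (GRCm38). Alternatives covered scaling, tool, the low-count filter, globin thresholds of 70 and 90%, UMI and mitochondrial limits, all haemoglobin genes left out and each library left out. Those with 80 to 85% globin and without mitochondrial genes, and the interaction without libraries A and B, were chosen after seeing the data. Some list members are counted but not reported here by name.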

Additional observations from a re-analysis of the deposited data

Results flagged for a closer look

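In 136 groups of 4 or 5 libraries looked at for a value far from its neighbours, 7 had one, which is about the number that a chance rate of about 1 in 20 gives. The share of late erythroid barcodes in E16.5 Jag1Ndr/Ndr replicate 1, 36.5%, was far above the other 4 libraries of its stage. Among P3 libraries, A was low for Bpgm (8297 CPM) and for Hbb-y (11.7 CPM), B was low for Tmcc2 (891 CPM), and D was low for Ube2l6 (3553 CPM). Library C was high for Cks2 (92.6 CPM), and its Snhg11 level of 0.834 CPM, a single UMI, stood apart from 0, 0 and 0 CPM in A, B and D.

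A stage change that differed between late erythroid cells and erythroblasts brought out 5 genes that myeloid cells, among others, express, by the edgeR interaction test. The log2 difference between the changes was 3.75 for Lgals3, 3.75 for Fcer1g, 3.79 for Cybb, 3.71 for Hp and 3.55 for S100a6.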

How the results depend on the processing

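Stage calls kept within 1.5 times of 3237 under most settings, but there were 5306 without the low-count filter, 5582 at 70% globin and 183 at 90%, and 2666 to 3484 with single libraries left out. The interaction gave 361 calls at 90% globin and 5987 to 7000 with single libraries left out and 5341 without libraries A and B, against 7004. Genotype calls, 24 in all, were 0 in DESeq2, 0 at 70% globin, 14 without scaling factors, 47 without the filter and 0 to 186 with libraries left out. With the replicate block genotype calls were 80 and stage calls 3239. The numbers are shared by label only, and one pairing correlation could be had (0.195 over 2205 genes). The interaction already has the library as block. Genotype at 90% globin was not run, since too few libraries were left.

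The stage difference in the share of late barcodes was -4.53 percentage points at 70% globin, 4.91 at 90% and 3.37 to 12.5 with libraries left out. That between homozygous and other libraries was -2.39 to 31.7. For Hbb-bt it was -5.64 at 90% globin and -9.43 to -5.87 with libraries left out, and for Hba-a1 -7.43 to 6.39. The alpha share differed by 5.46 points at 90% globin, against 2.09, and by 0.397 to 3.02 with libraries left out.

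Among named genes, Tmcc2 (-1.60), Ppp1r15a (-0.74) and Eif2ak1 (-0.89) turned sign between stages at 90% globin. Without single libraries, Apol11b ranged from -0.79 to 2.68 and Gm16867 from -9.84 to 2.51 for genotype. Of the 78 named stage genes, 28 lost the call under at least 1 of the settings in which they could be tested, and the 5 interaction genes kept direction and call throughout. The causes were not tested.

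Depth limits the shared library (3 barcodes) and P3 cells (a median of 259 to 554 non-globin UMIs), so low genes there cannot be followed per cell.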
